A study of Mus musculus with 8 samples.

Results

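The olfactory receptor arrays described here are 2 long tandem clusters of odorant receptor genes, taken as the windows chr2:85100000-90000000 (4.9 Mb) and chr7:109800000-115800000 (6 Mb) of the mm9 build. Members were the merged methylated-DNA regions that overlapped either window. There were 793 of them among 475861 regions of the whole series, 247 in the chromosome 2 array and 546 in the chromosome 7 array. The rest of the same chromosomes, 35535 and 25685 regions, served for comparison.

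DNA methylation was profiled in mouse small intestinal epithelium by MBD sequencing, in which a methyl-CpG-binding domain pulls down fragments that carry methylated CpGs. There were 4 groups of 2 biological replicates, all of mixed C57BL/6 CD1 strain. The embryonic groups were EpCAM+ CD31- CD45- small intestinal cells of embryos at days E12.5 and E14.5. The adult groups came from Lgr5EGFP-Cre-ERT males at postnatal day 60 and were stem cells sorted for high EGFP under Lgr5 (ISC) and enterocytes, the absorptive cells, sorted as EpCAM+ CD31- CD45-, a gate that by itself does not part enterocytes from other epithelial cells. Genotype and sex of the embryos are not given in the sources used here. The files hold no expression, so the labelled cell types could not be checked against markers.

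Olfactory receptors are the odorant-sensing G protein-coupled receptors of the nose. Their genes lie in long tandem arrays that grew by repeated local duplication, and they are best known for their use in olfactory neurons, where a cell expresses very few of them. Promoters of the receptor genes hold few CpGs, as counted below, but the CpG content of the whole arrays was not measured here. MBD capture depends on the density of methylated CpGs. A stretch can thus yield few peaks because it has few CpGs or because those it has are unmethylated. Peak lists cannot tell these apart, nor dense methylation in some cells from sparser methylation in all.

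Because the build of the gene table (RefSeq, GRCm38.p6) differs from that of the peaks, genes were used by name and order only, and no peak was assigned to a gene. In that table the longest run of olfactory receptor genes on chromosome 2 held 293 receptor genes, of which 222 were coding and 71 pseudogenes, with only 3 other coding genes among them. The run on chromosome 7 was more broken. It held 238 receptor genes, 193 coding and 45 pseudogenes, and 55 other coding genes. Most of the latter stood in blocks, among them the beta-globin genes from Hbb-bt to Hbb-y, which encode oxygen carriers of red cells, the Trim6 to Trim30d genes, a family with members that restrict viruses, and a block of 21 coding genes from Fam160a2 to Gm1966. That block holds Smpd1, the acid sphingomyelinase, Ilk, the integrin-linked kinase, and Tpp1, a lysosomal peptidase.

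The following stretches are the 250 bases before the annotated start of 4 genes from these runs (RefSeq, GRCm38.p6, in the direction of transcription). Such windows are called promoters here, but whether transcription begins at the annotated start was not checked. No peak was tied to them. CpGs are in capitals. Olfr1018 (plus strand) had the median count of the chromosome 2 receptor promoters, 1 CpG, and Olfr1212 (plus strand) their highest, 7. Olfr491 (plus strand), with 4, tied with 5 others for the highest count in the chromosome 7 run, and Syt9 (plus strand), a synaptotagmin gene that interrupts that run, had 40. The last pair was picked after the counts were seen.
Olfr1018: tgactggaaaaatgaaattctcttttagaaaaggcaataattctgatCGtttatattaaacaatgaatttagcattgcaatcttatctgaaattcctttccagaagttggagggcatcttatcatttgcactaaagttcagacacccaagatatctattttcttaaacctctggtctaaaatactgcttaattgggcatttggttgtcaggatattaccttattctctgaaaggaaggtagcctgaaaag
Olfr1212: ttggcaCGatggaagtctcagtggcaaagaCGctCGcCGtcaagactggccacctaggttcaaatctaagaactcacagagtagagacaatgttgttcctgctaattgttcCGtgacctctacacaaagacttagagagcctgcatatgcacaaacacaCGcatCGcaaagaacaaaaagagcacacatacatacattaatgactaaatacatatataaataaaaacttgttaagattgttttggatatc
Olfr491: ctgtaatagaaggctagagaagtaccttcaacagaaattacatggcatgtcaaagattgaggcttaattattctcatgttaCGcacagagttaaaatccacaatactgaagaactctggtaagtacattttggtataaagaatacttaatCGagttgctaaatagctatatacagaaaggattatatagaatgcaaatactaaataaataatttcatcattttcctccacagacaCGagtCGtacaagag
Syt9: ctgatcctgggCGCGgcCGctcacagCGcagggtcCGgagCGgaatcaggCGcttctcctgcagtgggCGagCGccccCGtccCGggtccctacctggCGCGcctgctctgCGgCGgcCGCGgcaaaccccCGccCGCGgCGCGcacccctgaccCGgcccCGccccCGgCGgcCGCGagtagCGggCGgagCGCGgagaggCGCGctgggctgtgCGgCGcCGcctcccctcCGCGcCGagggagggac

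Over 357 promoter windows of the receptor genes in the 2 runs, the mean was 0.849 ± 1.03 CpGs (SD over windows), and 46.5% had none. Over 5183 windows of all other genes on chromosomes 2 and 7 the mean was 9.87 ± 9.85, and 6.89% had none. Among all 32851 windows of the table, 7.87% had no CpG. Of the receptor windows 1 held 5 or more CpGs, against 56.4% of the other genes' windows. The median GC content was 32.4% for the receptor genes and 52.8% for the others. Chromosome-wide, Olfr1348 had the median count of the chromosome 7 receptor promoters (1) and Olfr1350 the highest (5), and both lay outside the long run. The 51 windows of the other coding genes inside the chromosome 7 run had a median of 2 CpGs, between the receptors and the genes outside. The letters of these windows describe the reference, not the samples.

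**Figure D1:**
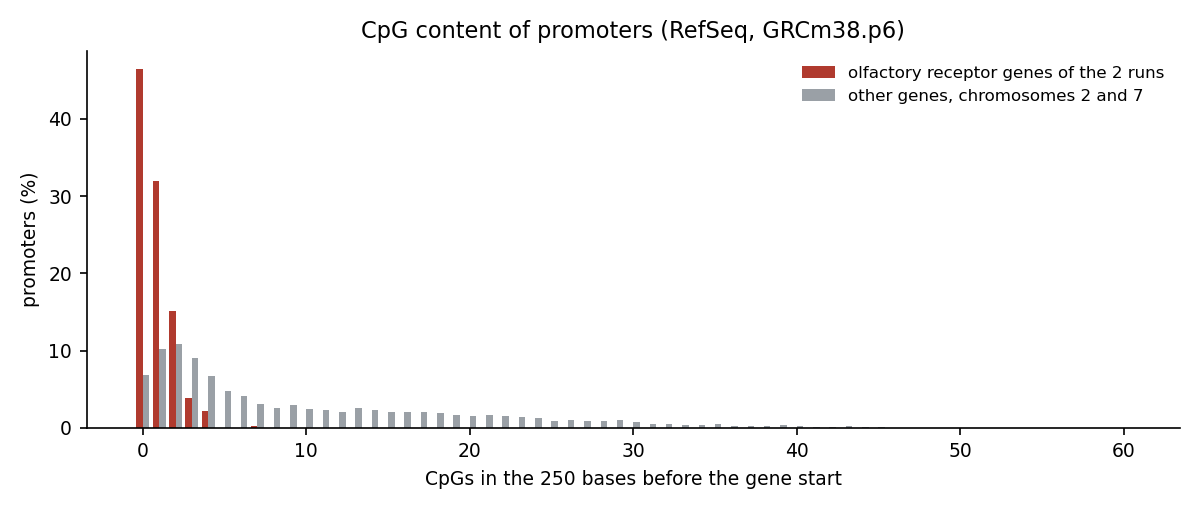
Share of promoter windows (y axis, percent) by the number of CpGs in the 250 bases before the gene start (x axis), for olfactory receptor genes of the 2 runs (red, 357 windows) and other genes of chromosomes 2 and 7 (grey, 5183 windows). The receptor genes crowd at 0 and 1 CpG, while 56.4% of the others have 5 or more.

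The first question was how densely the arrays were covered by peaks, the places where pulled-down tags piled up past the caller's cutoff. In the chromosome 2 array the E12.5 libraries had 17 and 11 peaks, with 95% exact Poisson intervals of 9.90 to 27.2 and 5.49 to 19.7 that cover counting error only. The E14.5 libraries had 143 and 136 peaks, the ISC libraries 81 and 97, and the enterocyte libraries 79 and 84. Both E12.5 libraries thus lay far below the other 6, although they were the deepest. Library totals ran from 31438314 to 55442400 tags, and lists from 84990 peaks in E12.5 replicate 2 to 338262 in E14.5 replicate 2, so counts were set against the rest of the same chromosome in the same library.

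Relative to the rest of chromosome 2, the array's peak density was 0.0802 and 0.0617 for the E12.5 libraries and 0.215 and 0.192 for E14.5, while ISC gave 0.190 and 0.163 and enterocytes 0.231 and 0.172. All 8 libraries were below 1. The mean log2 ratio was -2.74 ± 0.70 (SD, n = 8), a density 6.68-fold lower than in the rest of the chromosome (exact two-sided sign-flip permutation p = 0.00781, the smallest 8 libraries can give, and 0.00781 after Benjamini-Hochberg adjustment over the 2 arrays). By bases, 0.0913% to 1.29% of the array lay inside peaks over the libraries, against 2.01% to 7.05% of the rest.

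The chromosome 7 array was less empty. It held 91 and 79 peaks in the E12.5 libraries and 347 and 387 in E14.5, while ISC had 242 and 332 and enterocytes 207 and 302. Its density relative to the rest of chromosome 7 was 0.402 and 0.397 for E12.5 and 0.488 and 0.494 for E14.5, then 0.518 and 0.506 for ISC and 0.561 and 0.554 for enterocytes. Replicates lay closer to each other than to any other group, and the 4 groups did not overlap. With the full lists and the rest of the chromosome, the mean log2 ratio was -1.04 ± 0.19 (SD, n = 8), a density 2.06-fold lower (exact two-sided sign-flip permutation p = 0.00781, adjusted 0.00781). The density of the chromosome 2 array was lower than that of the chromosome 7 array in 8 of 8 libraries, by a mean log2 difference of -1.70 ± 0.53 (exact two-sided sign-flip permutation p = 0.00781, a comparison added after the data were seen). Against the 5 Mb on either side in place of the rest of the chromosome, the chromosome 7 array was 3.01-fold lower and the chromosome 2 array 6.48-fold. These p-values concern the libraries, which share the genome, and not whether the arrays stand out among other stretches.

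**Figure D2:**
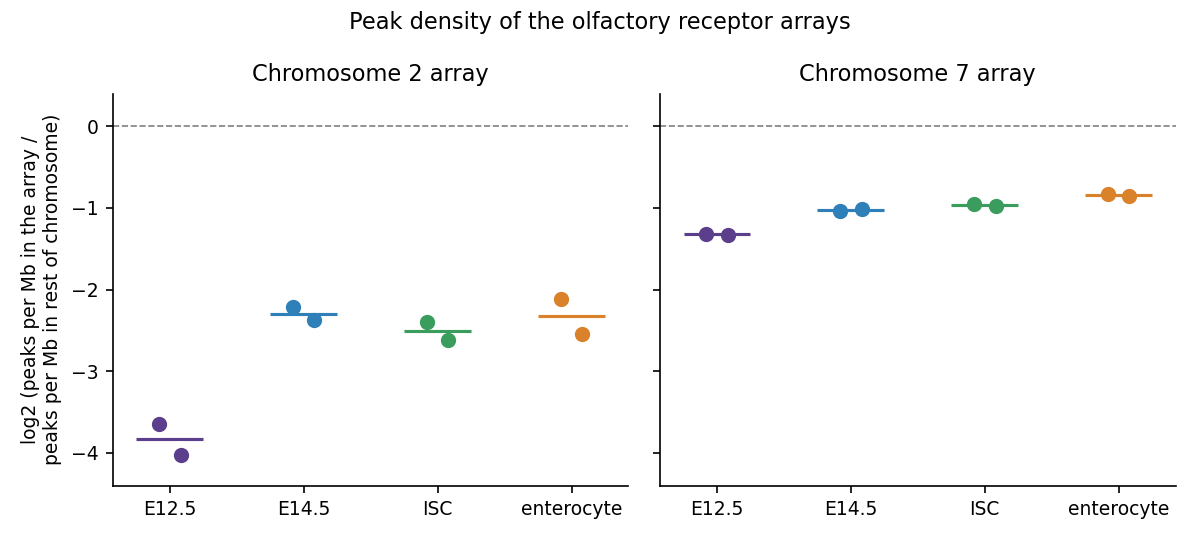
Log2 ratio of peaks per Mb in each array to peaks per Mb in the rest of its chromosome (y axis) by group (x axis); points are libraries, horizontal bars are means of 2, and the dashed line marks equal density. All points are below 0, with means from -3.83 at E12.5 to -2.30 at E14.5 on chromosome 2 and from -1.32 at E12.5 to -0.84 in enterocytes on chromosome 7.

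Setting the arrays beside windows of 1 Mb tiled over the rest of each chromosome showed how unusual they were. The 4 whole windows of the chromosome 2 array held 38 to 65 merged regions each (median 49), and 10 of 173 windows elsewhere on the chromosome held 49 or fewer, where the median was 223. The 6 windows of the chromosome 7 array held 62 to 121 (median 87). There, 45 of 142 windows elsewhere held 87 or fewer, so the chromosome 7 array was low but not rare on its chromosome. A stretch without regions of 7079 kb also lies outside the array on chromosome 7 and lowers the density it was compared with.

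**Figure D3:**
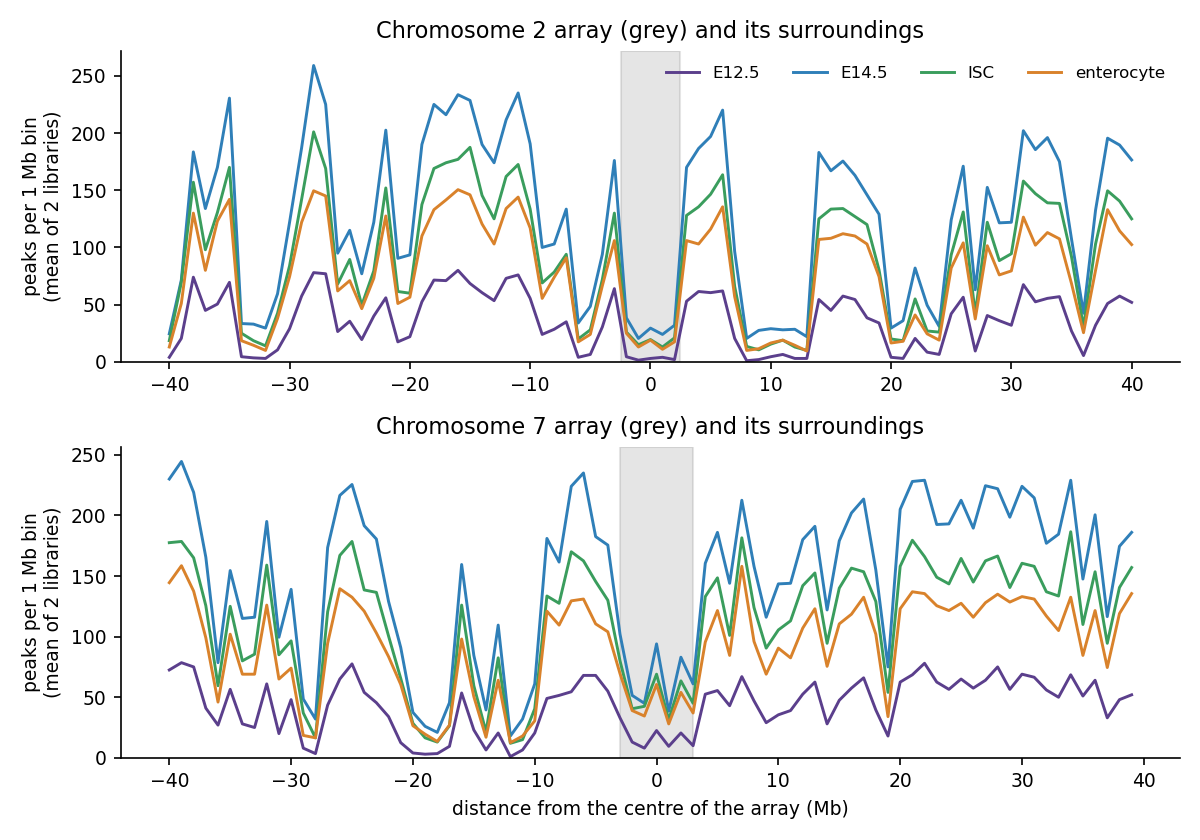
Peaks per 1 Mb bin (y axis, mean of 2 libraries per group, by peak summit) against distance from the centre of each array (x axis, Mb), with the array in grey. The curves drop at both arrays and at other places nearby, and E12.5 is the lowest curve throughout.

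The groups were compared next. On the log2 scale the chromosome 2 ratio averaged -3.83 ± 0.27 for E12.5 and -2.30 ± 0.11 for E14.5, and for the adult cells -2.51 ± 0.16 (ISC) and -2.33 ± 0.30 (enterocytes), each the SD with n = 2. E14.5 exceeded E12.5 by 1.53, more than the spread of either pair, while ISC and E14.5 differed by -0.21 and enterocytes and ISC by 0.18, differences of the size of the replicate spread. On chromosome 7 the ratio was -1.32 ± 0.01, -1.03 ± 0.01, -0.97 ± 0.02 and -0.84 ± 0.01 in the same order, in steps of 0.30, 0.06 and 0.12. An exact two-sided permutation test of 2 libraries against 2 cannot fall below p = 0.333, so no pair of groups was tested.

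Adult against embryonic libraries could be tested. The adult ratio was higher by 0.27 on chromosome 7, with 4 of 4 adult libraries above every embryonic one (exact two-sided permutation p = 0.0286, the smallest possible, and 0.0571 adjusted over the 2 arrays). It did not pass the adjustment. On chromosome 2 the difference was 0.65 (exact two-sided permutation p = 0.343, adjusted 0.343), with E12.5 below and E14.5 among the adult values. This test takes the libraries of a side as exchangeable, although each side is 2 groups.

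The low E12.5 values remained low in lists of equal length. With every list held to its 84990 highest-scoring peaks, the chromosome 2 ratio was -3.86 ± 0.23 at E12.5 and -2.37 ± 0.12 at E14.5, a step of 1.48, and the chromosome 7 step was 0.48. Peak-poor stretches elsewhere showed a like drop, however. In the chromosome 2 array E12.5 had 10.0% as many peaks per Mb as E14.5 (2.86 against 28.5). In the 18 windows elsewhere on chromosome 2 with as few regions as the array, E12.5 had 13.6% as many (3.94 against 29.0), and in the 152 richer windows 28.8% (44.8 against 156). In the chromosome 7 array it had 23.2%, in 22 windows of like region number 18.6%, and in 91 richer windows 29.6%. The low E12.5 density was therefore not shown to be particular to the olfactory receptor arrays. These windows were chosen after the data were seen, and no test was made.

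Presence across libraries was read from the merged regions. Of the 247 regions of the chromosome 2 array, 108 (43.7%) had a peak in a single library, against 28.1% of all regions in the series and 28.1% of the rest of chromosome 2. E14.5 replicate 1 alone accounted for 37 of them and E14.5 replicate 2 alone for 33. None was called in all 8 libraries, where 5.16% of all regions and 4.94% of the rest of the chromosome were. Of the 546 regions of the chromosome 7 array, 161 (29.5%) were called in a single library and 28 (5.13%) in all 8, close to the 27.3% and 5.41% of the rest of chromosome 7. The chromosome 7 array thus had fewer regions per Mb, while its regions recurred across libraries about as often as those elsewhere.

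**Figure D4:**
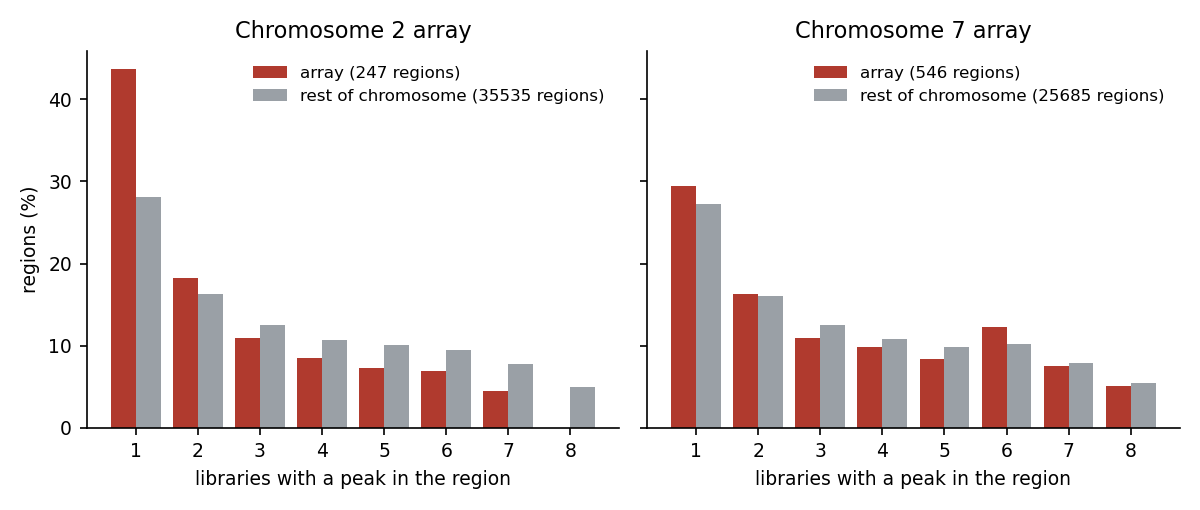
Share of merged regions (y axis, percent) by the number of libraries with a peak in them (x axis), in each array (red) and the rest of its chromosome (grey). On chromosome 2, 43.7% of the array's regions are in a single library and none in 8; on chromosome 7 array and rest run close together.

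By group, 1 region of the chromosome 2 array had a peak in both E12.5 libraries (0.405%, against 7.93% of all regions and 7.71% of the rest of the chromosome). Both E14.5 libraries had a peak in 71 (28.7%, against 43.7% of all regions), both ISC libraries in 48 (19.4%, against 31.4%) and both enterocyte libraries in 52 (21.1%, against 27.7%). The 2 E12.5 libraries shared 3.85% of the regions called in either, while the replicates of the other groups shared 35.9% (E14.5), 38.4% (ISC) and 46.8% (enterocytes). In the rest of chromosome 2 the shares were 25.3%, 52.9%, 47.4% and 50.4%, so E12.5 replicates shared the least there too, and replicates of each group shared less inside the array. In the chromosome 7 array both E12.5 libraries had a peak in 38 regions (6.96%), both E14.5 libraries in 224 (41.0%), both ISC libraries in 178 (32.6%) and both enterocyte libraries in 179 (32.8%), against 8.25%, 44.6%, 32.4% and 28.3% of the rest of chromosome 7.

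Replicates of every group matched at 35 regions of the chromosome 2 array and 110 of the chromosome 7 array. The commonest pattern was a peak in both libraries of E14.5, ISC and enterocytes and in neither of E12.5, at 16 on chromosome 2 (45.7%, against 30.8% of matching regions in the rest) and 53 on chromosome 7 (48.2%, against 31.4%). E14.5 alone had 12 on chromosome 2 (34.3%, against 21.5% in the rest) and 18 on chromosome 7 (16.4%, against 19.7%). All groups had none on chromosome 2, against 29.1% in the rest, and 28 on chromosome 7 (25.5%, against 30.1%). Among regions that both E14.5 libraries held, both enterocyte libraries also had 53.5% on chromosome 2 and 65.2% on chromosome 7, against 49.9% and 51.2% in the rest of those chromosomes. For ISC the shares were 43.7% and 62.1%, against 53.9% and 55.3%. On chromosome 2 the ISC share (31 of 71) was thus below the rest. The enterocyte share there (38 of 71) was slightly above the rest, but so was the share with no enterocyte peak (25.4%, against 22.6%).

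Setting E14.5 against E12.5 asks what changes as the gut epithelium develops. Regions with E14.5 peaks in duplicate and no E12.5 peak numbered 195, or 24.6% of the 793 members, against 23.9% of all regions, so the share was near the background. As a share of what both E14.5 libraries held it was 77.5% on chromosome 2 (55 of 71) and 62.5% on chromosome 7 (140 of 224), against 54.5% and 54.1% in the rest of those chromosomes. This share was not computed for the peak-poor windows elsewhere, where E12.5 was low as well, so it is not shown to be particular to the arrays. The strongest of the 195 regions by rank in the E14.5 lists was chr7:115589063-115589866, with 51 and 46 tags at E14.5. It held 20 and 51 for ISC and 48 and 48 for enterocytes, and its nearest E12.5 peak was 70296 bp away. The next were chr7:112722052-112723079, with 69 and 40 tags at E14.5, and chr7:114352166-114354783, with 118 and 105. E12.5 peaks lay much closer to these, at 4788 and 8670 bp. The 4 adult libraries had peaks in these 2 regions as well, of 43 to 83 and of 108 to 210 tags.

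The reverse, E12.5 without E14.5, was found at 2 member regions (0.252%, against 0.276% of all regions). On chromosome 2 it was chr2:88731951-88732508, the only region of that array called in both E12.5 libraries. It held 40 and 37 tags, had no peak in any other library, and lay 22486 bp from the nearest E14.5 peak. The other, chr7:114790468-114791069, held 46 and 30 tags and had an E14.5 peak 1571 bp away.

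ISC against E14.5 asks how adult stem cells differ from fetal epithelium. E14.5 peaks without an ISC peak numbered 49 member regions (6.18%, against 6.69% of all regions), and the reverse 9 (1.13%, against 1.91%). Of what both E14.5 libraries held, 26.8% lacked an ISC peak on chromosome 2 (19 of 71) and 13.4% on chromosome 7 (30 of 224). In the rest of those chromosomes 15.3% and 14.6% did. For the reverse the shares were 8.33% (4 of 48) and 2.81% (5 of 178), against 6.03% and 6.05%. The best-ranked of the former, chr2:87721733-87722529, held 40 and 27 tags at E14.5 and 55 and 31 in enterocytes. It was followed by chr2:89760317-89761079, with 32 and 28 tags, and chr2:85979267-85979982, with 28 and 33, whose nearest ISC peak lay 954 bp away. Of the ISC regions, chr7:109932168-109932650 held 28 and 28 tags, chr2:87343442-87343912 held 30 and 22, and chr2:85354627-85355062 held 20 and 24.

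Enterocytes against ISC asks what changes on differentiation, and separating regions were few in the arrays as in the genome at large. Enterocytes had 12 that ISC lacked (1.51%, against 1.28% of all regions), and ISC had 20 that enterocytes lacked (2.52%, against 3.85%). For enterocytes chr7:110767088-110767840 came first, with 49 and 41 tags, then chr2:87796738-87797491, with 42 and 39, and chr7:112667616-112668354, with 48 and 31. For ISC they were chr7:114883765-114884252, with 33 and 33 tags, chr7:112835438-112835917, with 30 and 24, and chr7:113509244-113509690, with 21 and 28. All named regions of either direction also had a peak in 1 or both E14.5 libraries, so none is shown to be new in the adult. In E14.5 replicate 1, chr2:87796738-87797491 held 45 tags and stood at the 90.2 percentile. The region chr7:112667616-112668354 also had an E12.5 peak, in replicate 2. A peak in all 4 adult and no embryonic library occurred at 1 member region (0.126%, against 0.402% of all regions), chr7:109974691-109975324, with 21 to 33 tags. No member region had the reverse pattern, which 0.139% of all regions had.

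Peaks that did form in the chromosome 2 array were weaker at the median than those of the rest of the chromosome. Their median score percentile within their own list ran from 27.2 to 48.3 over the libraries, against 49.4 to 50.4 outside, and was lower inside in 8 of 8. Median tags per peak were 36 and 32 for E12.5 and 25 and 17 for E14.5, then 24 and 25 for ISC and 44 and 34.5 for enterocytes, each below the median outside. Of the 17 and 11 peaks at E12.5, 0 and 1 stood in the top 25% of their lists. In the other libraries 17.3% to 28.6% did, and in 4 of them, both enterocyte libraries, ISC replicate 2 and E14.5 replicate 1, this share was above that of the rest of the chromosome. The weaker median thus did not extend to the strongest peaks in those 4. In the chromosome 7 array the median percentile ran from 48.2 to 61.1, above that of the rest of the chromosome in all libraries but E12.5 replicate 1. The share of its peaks in the top 25% of their lists was 33.4% to 35.3% in the adult libraries and 30.0% and 29.7% at E14.5, against 25.5% to 26.0% in the rest. At E12.5 it was 25.3% and 21.5%, against 25.1% and 25.6%, so replicate 2 lay below the rest. The fold enrichment over local background, the authors' own value, had a higher median inside than outside in every library in both arrays, for example 8.46 against 7.82 for E14.5 replicate 2 on chromosome 2. The caller's background is local, and its level in the arrays was not measured here.

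Some chromosome 7 regions were strong in every library. The region chr7:112485026-112486092 ranked first among the 28 called in all 8. It held 53 and 61 tags in the E12.5 libraries and 86 and 74 in E14.5, then 66 and 86 for ISC and 87 and 106 for enterocytes, and stood at the 88.0 percentile or higher in each list. The region chr7:110486509-110487803 followed, with 77 and 52, 88 and 75, 68 and 86, and 133 and 100 tags in the same order. The others named by the same rule were chr7:111354194-111355474, with 43 to 96 tags over the libraries, chr7:114496163-114497233, with 48 to 88, and chr7:112868541-112869839, with 53 to 121. All 5 stood in the top 25% of every list.

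No chromosome 2 region qualified, and the nearest were 11 regions with a peak in 7 libraries, all of them lacking 1 of the E12.5 libraries. These were looked at after their values were seen. The first, chr2:88412547-88413480, held 51 tags in E12.5 replicate 1, 61 and 39 in E14.5, then 46 and 37 for ISC and 58 and 51 for enterocytes. A neighbour, chr2:88419001-88420432, held 78 tags in E12.5 replicate 1 and 63 to 118 in the other 6. By contrast chr2:86338667-86340231 held 49 tags in E12.5 replicate 2, 56 and 25 in E14.5, then 88 and 88 for ISC and 113 and 89 for enterocytes. Raw tags there were thus higher in the adult libraries than in the embryonic ones with a peak. Peak widths differed by library, with a median of 272 bp in E14.5 replicate 2 and 849 bp in enterocyte replicate 1. The tags were not corrected for width or depth.

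Within the arrays the regions were spread unevenly. On chromosome 2 every 100 kb bin held regions, 1 to 10 of them (median 5), and none of the 49 bins reached the mean of 20.4 of the rest of the chromosome. On chromosome 7 the bins held 0 to 30 (median 7), and 9 of 60 reached the mean of 17.9 of the rest. Those 9 bins held 205 of the 546 regions (37.5%) and 11 of the 28 called in all 8 libraries. They were 111300000 to 111399999, the stretch from 112500000 to 112899999 and the stretch from 114500000 to 114899999. The remaining 51 bins averaged 6.69 regions, near the 5.04 of the chromosome 2 array. Bins were chosen by their own counts, so this is a description. The gene order above places blocks of other genes within the chromosome 7 run, but whether these bins hold them was not established, because positions were not converted between builds.

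**Figure D5:**
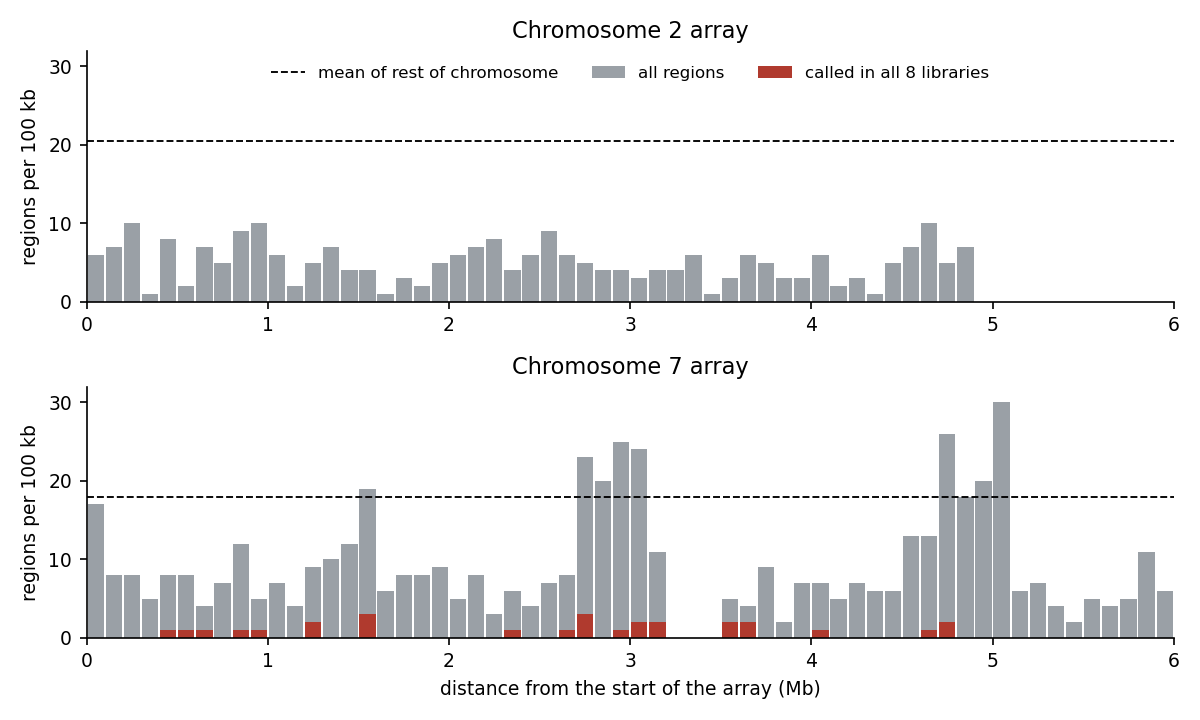
Merged regions per 100 kb bin (y axis; grey, all regions; red, those called in all 8 libraries) against distance from the start of each array (x axis, Mb), with the mean of the rest of the chromosome dashed (20.4 and 17.9). All bins of the chromosome 2 array are below the line, and 9 bins of the chromosome 7 array reach it.

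Gaps between neighbouring regions were wider than elsewhere, with a median of 12.49 kb in the chromosome 2 array and 4.81 kb in the chromosome 7 array, against 2.19 and 2.21 kb in the rest. The longest stretch without any region was chr2:89401313-89515119 (114 kb), and the next was 110 kb. On chromosome 7 it was chr7:112958642-113383434 (425 kb), far beyond the next at 77.0 kb, and it includes 3 whole bins with no region in any library. Only 7 gaps in the rest of chromosome 7 were as long. How tags matching several places were treated is not given in the sources used here. Many receptor genes are close copies of each other, so a stretch without peaks in every library is not shown to be unmethylated.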

How the data were processed

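Each library was a peak list. The submitters' processing notes name Bowtie 1.1.2, SAMtools 1.2, bcl2fastq 1.8.4 and the mm9 build. Each library went through MACS 1.4.2 alone and with no control, on duplicate-removed alignments, per the file headers, with the cutoff on p set to 1e-05 and regional background taken over 10000 bp. Tag counts per peak are whole numbers as deposited, not normalized. Each peak's score (a transformed p, as -10 times its log10) and its fold, a ratio to local background, are deposited values that MACS gave the authors. A missing peak means only that tags did not pass the cutoff.

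Here, peaks of all 8 lists sharing at least 1 bp were merged, presence was read per library, and peaks per Mb in each array were divided by peaks per Mb between the first and last peak of the rest of that chromosome. Sign-flip and label permutations over libraries were exact (Python 3.11.15, numpy 2.4.6, pandas 2.3.3). Replicates are biological duplicates per the series' design text, and any 2 lists had at most 1 peak with the same borders. Tag counts were not tested, since they exist only where a peak was called. The density step was checked on simulated data. Regions named were the 5 best-ranked per array among those called in all 8 libraries and the 3 best-ranked per comparison and direction, by their lowest score percentile. Alternatives were lists of equal length, the better 50% of each list, covered bases, 5 Mb flanks, trimmed borders, merging within 500 bp, 50% coverage and leaving out each library. The windows, lists and rules were chosen with earlier results of these data known.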

Additional observations from a re-analysis of the deposited data

Results flagged for a closer look

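On chromosome 7 the adult and embryonic libraries differed in how far the array's peak density lay below the rest of the chromosome. The adult log2 ratio was higher by 0.27, in 4 of 4 adult libraries against every embryonic one, with p = 0.0286 in the exact permutation test (two-sided), adjusted to 0.0571 over the 2 arrays. The alternatives gave adjusted values from 0.0571 to 0.286, and equal lists by fold were the highest. No library of the 4 adult or 4 embryonic ones stood apart from the others by Dixon's test in either array. Each side pools 2 groups, and a difference between them widens the range this test uses. The result therefore does not show that the libraries were alike.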

How the results depend on the processing

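The lower density of both arrays kept its direction and its call under the 6 alternatives run, without each library and without both E12.5 libraries. Its mean log2 ratio ran from -3.14 to -2.35 on chromosome 2 and from -1.59 to -0.63 on chromosome 7, and from -2.83 to -2.56 and -1.07 to -0.997 when 1 library was left out. The adult minus embryonic difference ran, without 1 library, from 0.33 to 0.93 on chromosome 2 and from 0.22 to 0.32 on chromosome 7. The labels' replicate numbers are only numbers, though replicate 1 lay above replicate 2 in all 4 groups on chromosome 2. With the replicate block its exact permutation p was 0.444 on chromosome 2 and 0.0556 on chromosome 7 (0.111 adjusted). The smallest p this blocked test can give is 0.0556, so it could not pass 0.05 and says nothing about stability.

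Steps between groups on chromosome 7 were small and moved. E14.5 minus E12.5 was 0.48 with equal lists by score, 0.37 with the better 50%, 0.77 with equal lists by fold, 0.38 against 5 Mb flanks and 0.27 with trimmed borders. ISC minus E14.5 was 0.14, 0.20, -0.055, 0.022 and 0.082 in that order, and 0.078 by bases. Its sign changed with equal lists by fold, and the cause was not tested. Enterocyte minus ISC was 0.032, 0.10, 0.23, 0.16 and 0.10, and 0.095 by bases. On chromosome 2 E14.5 minus E12.5 was 2.42 with the better 50% and 1.90 with equal lists by fold, where enterocyte minus ISC was 0.44. Without 1 library the latter ran from -0.03 to 0.39, E14.5 minus E12.5 from 1.34 to 1.72 and ISC minus E14.5 from -0.32 to -0.10. On chromosome 7 the steps ran from 0.29 to 0.31, 0.04 to 0.08 and 0.11 to 0.14.

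Counts of regions over both arrays depend on list length by construction. Member regions numbered 346 with equal lists by score, 413 with the better 50%, 793 with 50% coverage and 713 to 786 without 1 library. Shares of all regions under these settings were not computed, so the counts below are not set against a background. With equal lists by score, both E14.5 libraries had 83 regions, both ISC 94 and both enterocyte 119. Separating regions were then 31 for E14.5 without E12.5, 5 for the reverse, 8 for E14.5 without ISC, 8 for ISC without enterocytes and 2 for adult without embryo. With the better 50%, both E12.5 had 13, both E14.5 151, both ISC 126, both enterocyte 127 and all 8 libraries 11, with 97 for E14.5 without E12.5, 0 for the reverse and 14 for E14.5 without ISC. Counting a peak only where it covered 50% of the region, both E12.5 had 16, both E14.5 99 and all 8 libraries 4. Separating regions were 66 for E14.5 without E12.5, 27 for ISC without E14.5, 24 for the reverse, 25 for enterocytes without ISC and 10 for adult without embryo. Merging within 500 bp left every count over both arrays within 1.5 times.

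Leaving out a library asks less of its group, so counts rose. They ran from 39 to 105 for both E12.5, 295 to 472 for both E14.5, 226 to 412 for both ISC, 231 to 376 for both enterocyte and 28 to 56 for all 8. Separating regions ran from 195 to 356 for E14.5 without E12.5, 2 to 16 for the reverse, 9 to 62 for ISC without E14.5, 49 to 147 for the reverse, 12 to 60 for enterocytes without ISC, 20 to 99 for the reverse, 1 to 8 for adult without embryo and 0 to 2 for the reverse. At E12.5, 11 to 17 peaks on chromosome 2 limit the precision.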
